A study of Mus musculus with 8 samples.

Results

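The 10 genes described here are the macrophage chemokines Ccl2, Ccl3, Ccl4, Ccl5, Ccl6, Ccl7, Ccl9, Cxcl2, Cxcl10 and Cxcl16, taken by name from the 32249 genes listed in the deposited count tables. All 10 were listed. They were measured by HIVE single-cell RNA sequencing, in which cells settle into an array of small wells and their RNA is tagged with a cell barcode and a unique molecular identifier (UMI), so that each UMI counts as 1 captured RNA molecule. The cells came from hind limb bone marrow of C57Bl/6J mice, which the labels give as male and 10 weeks old, and were grown for 3 days with M-CSF, the growth factor that drives marrow progenitors into macrophages. They were then kept for 24 h with CYR61 at 4 µg/mL (4 libraries, replicates 1 to 4) or without it (4 control libraries, replicates 1 to 4). CYR61, encoded by Ccn1, is a secreted matricellular protein that binds integrins. The labels do not say whether the replicates came from separate mice or cultures, so the p-values below measure the spread between these libraries, which may be technical.

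Chemokines are small secreted proteins that guide leukocytes along their gradients by binding G protein-coupled receptors. Macrophages make some of them in the resting state and others after they meet microbial products, interferons or other cytokines. Ccl6 and Ccl9, found in rodents, bind CCR1 and are made by cultured mouse macrophages without a stimulus, and Cxcl16, the ligand of CXCR6, is made as a membrane-bound protein that is cut from the cell surface by the proteases ADAM10 and ADAM17. Ccl2 and Ccl7 attract monocytes through CCR2, Ccl3, Ccl4 and Ccl5 attract monocytes and T cells, Cxcl2 attracts neutrophils through CXCR2, and Cxcl10 attracts T cells through CXCR3. These last 7 are treated here as the stimulus-induced members and the first 3 as the constitutive ones. That division was made from this background and not from the values, though earlier results of these data were known.

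Of the members, 8 lie on chromosome 11 and 2 on chromosome 5 (GENCODE positions on GRCm38). Ccl5 (chr11:83525778-83530518, minus strand), Ccl9, Ccl6, Ccl3 and Ccl4 share a stretch of 138.9 kb, Ccl2 and Ccl7 lie within a stretch of 12 kb, and Cxcl16 (chr11:70453983-70459984, minus strand) lies apart from both groups. Cxcl2 (chr5:90903871-90905938, plus strand) and Cxcl10 (chr5:92346638-92348889, minus strand) are the members of chromosome 5. RefSeq promoter sequences of the GRCm38.p6 assembly were at hand for 5 of the 10 members, and those of Cxcl10 and Cxcl2 are shown because they alone among these 5 held either of the 2 motifs searched. The capitals mark these motifs, and each sequence ends at the base before the GENCODE gene start.
Cxcl10 promoter, chr5:92348890-92349139, minus strand: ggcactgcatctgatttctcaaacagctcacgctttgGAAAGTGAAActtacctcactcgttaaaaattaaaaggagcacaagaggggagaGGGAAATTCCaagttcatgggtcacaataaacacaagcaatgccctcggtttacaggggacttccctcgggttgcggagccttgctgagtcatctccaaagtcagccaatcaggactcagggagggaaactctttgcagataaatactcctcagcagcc
Cxcl2 promoter, chr5:90903649-90903870, plus strand: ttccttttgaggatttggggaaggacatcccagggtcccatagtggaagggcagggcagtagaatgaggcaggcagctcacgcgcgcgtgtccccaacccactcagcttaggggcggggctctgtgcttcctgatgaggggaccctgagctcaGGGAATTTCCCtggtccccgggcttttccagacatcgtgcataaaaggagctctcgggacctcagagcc
The first motif was GAAA, any 2 bases and GAAA again, a short form of the interferon-stimulated response element bound by IRF factors. The second was GGGA, any 2 bases and TTCC, a short form of the site bound by NF-kappaB, and both were searched on both strands. The Cxcl10 sequence held GAAAGTGAAA at its bases 38 to 47 and GGGAAATTCC at its bases 92 to 101. The Cxcl2 sequence held the overlapping matches GGGAATTTCC at its bases 154 to 163 and, read on the other strand, GGAATTTCCC at its bases 155 to 164. In the promoter table, 978 of 32851 promoters (2.98%) held the first motif and 397 (1.21%) the second. The promoters of Ccl3, Ccl6 and Ccl9 had no match to these letters in this window.

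Some properties of the libraries bear on every value below. A barcode was kept as a cell if it showed 300 genes or more and if mitochondrial genes supplied no more than 20% of its UMIs, which gave 12848 cells. The tables carry either of 2 date stamps, and many barcodes recurred across tables with the same stamp, CYR61 and control alike. The main values therefore use home-library cells: a recurring barcode was counted once per stamp, in the table that gave it the highest UMI total. This left 9196 cells, 499 to 3604 a library with CYR61 and 294 to 1058 without it, with 1149043 to 13933610 UMIs a CYR61 library and 842528 to 3436577 a control library. Control replicate 2 lost most by this rule, with 76.1% of the UMIs of its kept cells outside its home cells, against 0.891 to 27.4% in the other 7 libraries. Although every mouse is labelled male, CYR61 replicates 1 and 2 and control replicates 2 and 3 held Xist RNA at 1152 to 1249 CPM (UMIs of a gene scaled to the total of the library), while the other 4 libraries held at most 1.16 CPM of Xist and 323 to 399 CPM of Y-linked RNA. The earlier stamp belongs to replicates 1 and 2 of each group, the later stamp to replicates 3 and 4. All 10 macrophage markers on the list, Csf1r, Adgre1 and C1qa among them, were detected, and their summed level was 11507 to 15651 CPM in CYR61 libraries and 9028 to 13148 CPM in controls. Most of that sum was the marker Lyz2, at 7381 to 12256 CPM with CYR61 and 5880 to 10171 CPM without it. The summed level of 12 neutrophil markers was 650 to 3518 CPM with CYR61 and 647 to 1930 CPM without it, and the 3 erythroid markers were at 0. The 5 B cell markers summed to 2.61 to 6.57 CPM in CYR61 libraries and 8.97 to 36.8 CPM in controls, and their part in the results was not tested.

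In home-library cells, RNA of Cxcl16 and Ccl5 rose with CYR61, and no chemokine of the list was called lower. Cxcl10 was counted in each CYR61 library and in no control library. In an edgeR quasi-likelihood fit to the counts of home-library cells, 2 of the 9 members tested were higher at a Benjamini-Hochberg adjusted p under 0.05 and 0 were lower. Over all 10422 genes tested in that fit, 117 were higher (1.12%) and 4 lower (0.0384%). DESeq2 called the same 2 members, with 159 of 10218 genes higher (1.56%). The log2 fold change (CYR61 over control) was positive for 8 of the 9 tested members, with a median of 0.85 against -0.02 over all genes tested, and Ccl2 was the negative one. By role, 1 of 3 constitutive members was called higher (median log2 fold change 0.85), and 1 of the 6 stimulus-induced members that passed the filter on low counts (median 1.01). Cxcl10 did not pass that filter and is given as counts. In all kept cells, where a recurring barcode counts in every library that lists it, no member was called.

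**Figure D1:**
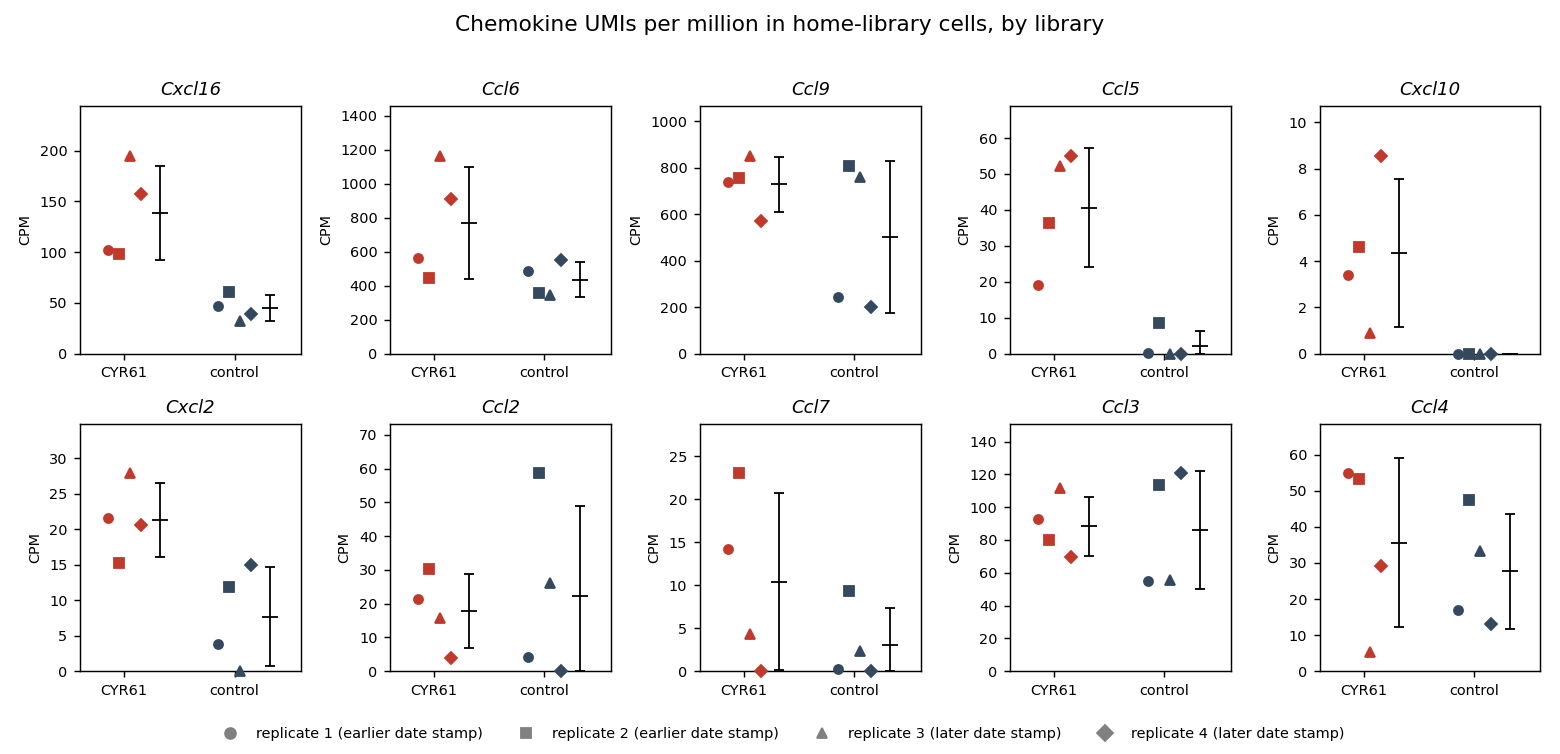
CPM (y axis) of each chemokine in home-library cells, 1 point per library, with CYR61 libraries in red at the left of each panel and control libraries in dark blue at the right. The black mark beside each group is the mean ± SD of 4 libraries, the lower bar stopping at 0, and marker shapes give the replicate. The groups do not overlap for Cxcl16, Ccl5, Cxcl10 and Cxcl2, and they overlap for the other 6 genes. Of the 10422 genes tested, a set without Cxcl10, 299 had every CYR61 library above every control (2.87%).

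Cxcl16 showed the smallest p among the members. Its level in CYR61 replicates 1 to 4 was 102, 98.5, 195 and 157 CPM, against 46.8, 61.1, 32.0 and 38.9 CPM in control replicates 1 to 4. Every CYR61 library thus lay above every control library, and the CYR61 libraries of the later date were the highest. The means were 138 ± 46.3 CPM with CYR61 and 44.7 ± 12.5 CPM without it (SD, n = 4 each), and the log2 fold change was 1.65 (SE 0.27, edgeR adjusted p = 0.00644). Across 23 other settings on home-library cells the log2 fold change stayed between 1.04 and 2.27, and 22 of them passed the threshold, the exception being the earlier date alone (adjusted p = 0.0675). The call was also lost in all kept cells, with a log2 fold change of 0.92 (edgeR adjusted p = 0.9999). Cxcl16 shares 552 bases with Zmynd15 on the opposite strand. Whether reads were counted by strand is not given in the sources used here. Zmynd15 had 3.21 to 5.22 CPM in CYR61 libraries and 0 to 3.40 CPM in controls, small beside Cxcl16.

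Ccl5, the chemokine also called RANTES, had 19.0, 36.4, 52.2 and 55.1 CPM in CYR61 replicates 1 to 4, against 0.291, 8.49, 0 and 0 CPM in control replicates 1 to 4. These levels rest on 150, 507, 60 and 206 UMIs with CYR61 and on 1, 10, 0 and 0 UMIs in the controls. The groups did not overlap, 3 controls were at or near 0, and control replicate 2, the library with most barcodes assigned elsewhere, held 10 of the 11 control UMIs. The fitted log2 fold change was 4.40 (SE 0.83, edgeR adjusted p = 0.0197). With so few control UMIs, Ccl5 passed the filter on low counts mainly through its CYR61 libraries, which limits what that p can show. Pooled over libraries, 923 UMIs with CYR61 and 11 UMIs without it gave a ratio of 20.3 (95% interval 11.3 to 40.8, counting error only). In all kept cells the log2 fold change was 1.62, the groups overlapped and the call was lost (edgeR adjusted p = 0.9999). The call passed in 18 of 23 other settings on home-library cells. It was lost without CYR61 replicate 4 (adjusted p = 0.0949), control replicate 1 (0.101), control replicate 3 (0.0617) or control replicate 4 (0.0576), and within the earlier date alone (0.143), and the fitted log2 fold change was 7.60 without control replicate 2, where the remaining controls held 1 UMI.

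Cxcl10, a standard interferon-response gene, was counted at 27, 64, 1 and 32 UMIs in CYR61 replicates 1 to 4, or 3.41, 4.59, 0.870 and 8.56 CPM, and at 0 UMIs in all 4 control libraries. The separation of the groups rests in CYR61 replicate 3 on a single UMI. With 3 counts allowed to the control group as a whole, the pooled level was at least 9.99-fold higher with CYR61. That bound holds for home-library cells alone: in all kept cells control replicate 2 held 12 UMIs in 10 cells and the groups overlapped, at 4.20 ± 3.23 CPM with CYR61 and 0.609 ± 1.22 CPM without it (SD, n = 4 each). It had too few counts for the filtered fit. With no filter on low counts, where 208 of 30619 genes were higher (0.679%), edgeR gave an adjusted p of 0.00343. In all kept cells the edgeR fit with no filter gave Cxcl10 an adjusted p of 0.496. Without CYR61 replicate 3, the library with a single UMI, Cxcl10 entered the filtered fit (edgeR adjusted p = 0.0444). With 0 UMIs in the controls it could enter only through the CYR61 libraries, so that value is not taken as support.

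Cxcl2, the neutrophil-attracting member, also had groups that did not overlap, but did not pass the test. It had 21.6, 15.2, 27.8 and 20.6 CPM in CYR61 libraries and 3.78, 11.9, 0 and 14.96 CPM in control libraries, so the lowest CYR61 library lay just above the highest control. In all kept cells its groups overlapped. Its log2 fold change was 1.53 (SE 0.63, edgeR adjusted p = 0.701). Of all 10422 genes, 2.87% had every CYR61 library above every control library. Cxcl2 shares 5.84% of its 50-base windows with its neighbour Cxcl3, which itself had 10 UMIs with CYR61 and 1 without it in these cells.

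**Figure D2:**
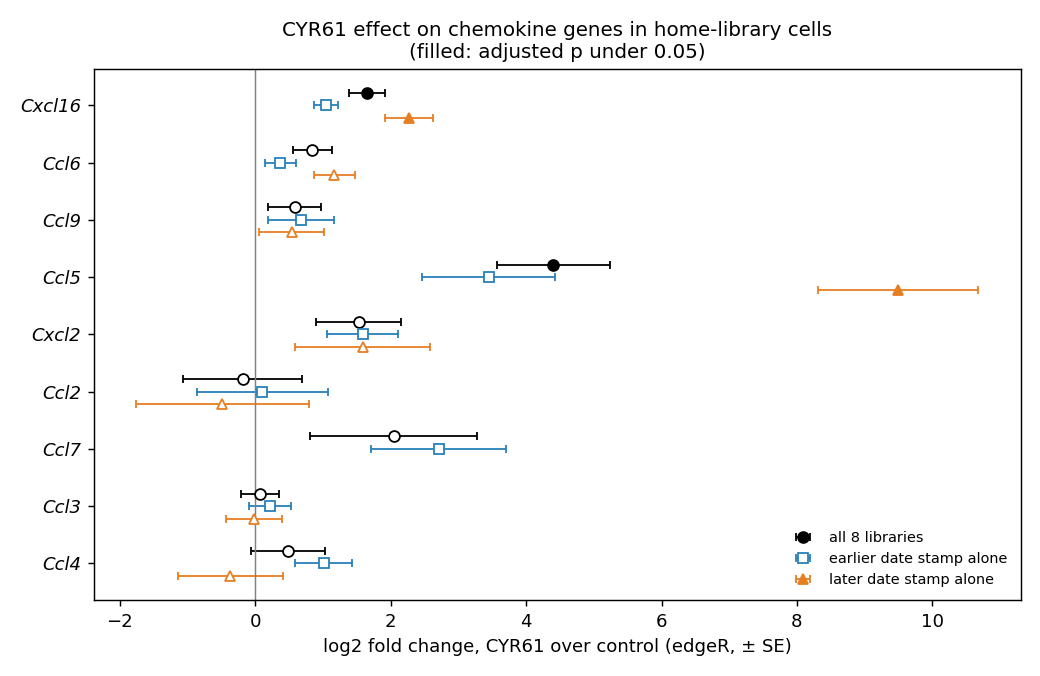
Log2 fold change (CYR61 over control, x axis) of the 9 tested chemokines with its SE from edgeR, in all 8 libraries (black circles) and within the earlier (blue squares) and later (orange triangles) date stamp alone. Filled symbols have an adjusted p under 0.05. Ccl7 was not tested in the later date alone, and the later value of Ccl5 was fitted against 2 control libraries at 0, so its size is no bound. Cxcl16 and Ccl5 stand to the right of 0 in each fit, while Ccl2, Ccl3 and Ccl4 stand close to 0 or on both sides of it.

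Among the constitutive members, Ccl6 had 560, 446, 1164 and 908 CPM in CYR61 libraries and 484, 355, 347 and 553 CPM in control libraries. The groups overlapped, because CYR61 replicate 2 lay below control replicates 1 and 4. Its log2 fold change was 0.85 (SE 0.29) with an unadjusted p of 0.013 and an edgeR adjusted p of 0.465. Its level followed the split by sex-linked RNA in both groups: with CYR61 the Xist libraries had 446 to 560 CPM and the Y-linked libraries 908 to 1164 CPM, and in controls 347 to 355 CPM and 484 to 553 CPM. With that split as a block, a fit that used 4 libraries of each kind, the log2 fold change of Ccl6 was 0.79 (SE 0.15, edgeR adjusted p = 0.00588). In that fit 199 of 10422 genes were called higher (1.91%). With the date stamp as a term instead, Ccl6 was not called, at 0.76 (SE 0.24, edgeR adjusted p = 0.278). Among the CYR61 libraries the split and the date stamp coincide and cannot be told apart.

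Ccl9 had 739, 756, 852 and 569 CPM in CYR61 libraries and 243, 806, 761 and 199 CPM in control libraries. With CYR61 the Xist libraries, at 739 to 756 CPM, lay within the range of the Y-linked libraries, at 569 to 852 CPM, whereas the controls fell into a high pair with Xist RNA, replicates 2 and 3, and a low pair, replicates 1 and 4. The log2 fold change over all libraries was 0.58 (SE 0.39, edgeR adjusted p = 0.957), and 0.82 (SE 0.27, adjusted p = 0.209) with the split as a block. Ccl6, Ccl9 and Cxcl16 together supplied 84.3 to 91.0% of the members' UMIs in CYR61 libraries and 83.0 to 90.7% in controls. These are shares of UMIs as counted and set no order of level between genes.

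Neither CCR2 ligand passed the test, and both varied widely between libraries of a group. Ccl2 had 21.2, 30.2, 15.7 and 4.01 CPM in CYR61 libraries and 4.07, 58.6, 26.1 and 0 CPM in control libraries, with a log2 fold change of -0.18 (SE 0.88, edgeR adjusted p = 0.9999). With CYR61 the Xist libraries had 21.2 to 30.2 CPM of Ccl2 and the Y-linked libraries 4.01 to 15.7 CPM, and in controls these were 26.1 to 58.6 CPM and 0 to 4.07 CPM. Ccl7, which lies beside Ccl2, had 14.3, 23.04, 4.35 and 0 CPM in CYR61 libraries and 0.291, 9.34, 2.37 and 0 CPM in control libraries. Its log2 fold change was 2.05 with an SE of 1.23 (edgeR adjusted p = 0.923), and the libraries with Xist RNA were again the high ones in each group. With that split as a block the log2 fold changes were 0.10 (SE 0.55, edgeR adjusted p = 0.975) for Ccl2 and 1.82 (SE 0.82, adjusted p = 0.407) for Ccl7.

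The T cell and monocyte attractants Ccl3 and Ccl4 had overlapping groups and did not pass the test. Ccl3 had 92.5, 80.0, 111 and 69.5 CPM in CYR61 libraries and 54.7, 114, 55.8 and 121 CPM in control libraries. Its log2 fold change was 0.07 (SE 0.29, edgeR adjusted p = 0.9999), the smallest in size of the members tested. Ccl4 had 54.9, 53.3, 5.22 and 29.1 CPM in CYR61 libraries and 16.9, 47.5, 33.2 and 12.96 CPM in control libraries. Its log2 fold change was 0.49 (SE 0.55, edgeR adjusted p = 0.9999), and the lowest library, CYR61 replicate 3, held 6 UMIs of it. Ccl4 followed the Xist and Y split in both groups: with CYR61 the Xist libraries had 53.3 to 54.9 CPM and the Y-linked libraries 5.22 to 29.1 CPM, and in controls 33.2 to 47.5 CPM and 12.96 to 16.9 CPM. With that split as a block the log2 fold change was 0.41 (SE 0.33, edgeR adjusted p = 0.717).

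Summed over the 10 genes, chemokine UMIs made up 1628, 1543, 2429 and 1821 CPM in CYR61 libraries and 854, 1471, 1257 and 940 CPM in control libraries. The lowest CYR61 library thus lay above the highest control, as it did for 2.87% of single genes. Most of this sum was Ccl6, Ccl9 and Cxcl16, of which Cxcl16 alone was called. The share of cells with no UMI of any member was 12.99 to 23.4% in CYR61 libraries and 30.8 to 45.3% in controls. It was taken without thinning, so it also depends on depth. Median UMIs a cell were 789 to 1595 in CYR61 libraries and 921 to 1144 in controls. To compare shares of cells at equal depth, each cell was thinned to 500 UMIs by its expected value, which left out 240 of 7139 CYR61 cells and 108 of 2057 control cells that were shallower.

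At that depth Cxcl16 was expected in 6.63 ± 2.42% of cells with CYR61 and 1.81 ± 0.303% without it (SD, n = 4 libraries each), and unthinned in 22.5 ± 0.869% and 8.54 ± 1.88%. Ccl5 was expected in 1.96 ± 0.682% of cells with CYR61 and 0.0238 ± 0.0450% without it, and Cxcl10 in 0.240 ± 0.236% with CYR61 and in none of the cells without it. Cxcl2 had 0.916 ± 0.145% with CYR61 and 0.312 ± 0.290% without it. For these 4 genes every CYR61 library lay above every control, which gives p = 0.0286 in an exact two-sided permutation test over the 70 assignments of libraries, the smallest this design can give. Of 14743 genes with a UMI in at least 20 home-library cells, 460 also had every CYR61 library above every control by this share (3.12%), and 204 had every one below (1.38%). Adjusted over these genes, a comparison added after the data were seen, the exact permutation p of the 4 members was 0.634, the smallest of any gene. The shares for Ccl6 were 30.9 ± 9.17% with CYR61 and 16.5 ± 4.79% without it (exact permutation p = 0.0571), and those for Ccl9 were 30.9 ± 5.43% and 19.2 ± 10.8% (exact permutation p = 0.143). Ccl2, Ccl3, Ccl4 and Ccl7 differed by at most 0.766 percentage points, with exact permutation p of 0.143 or above.

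**Figure D3:**
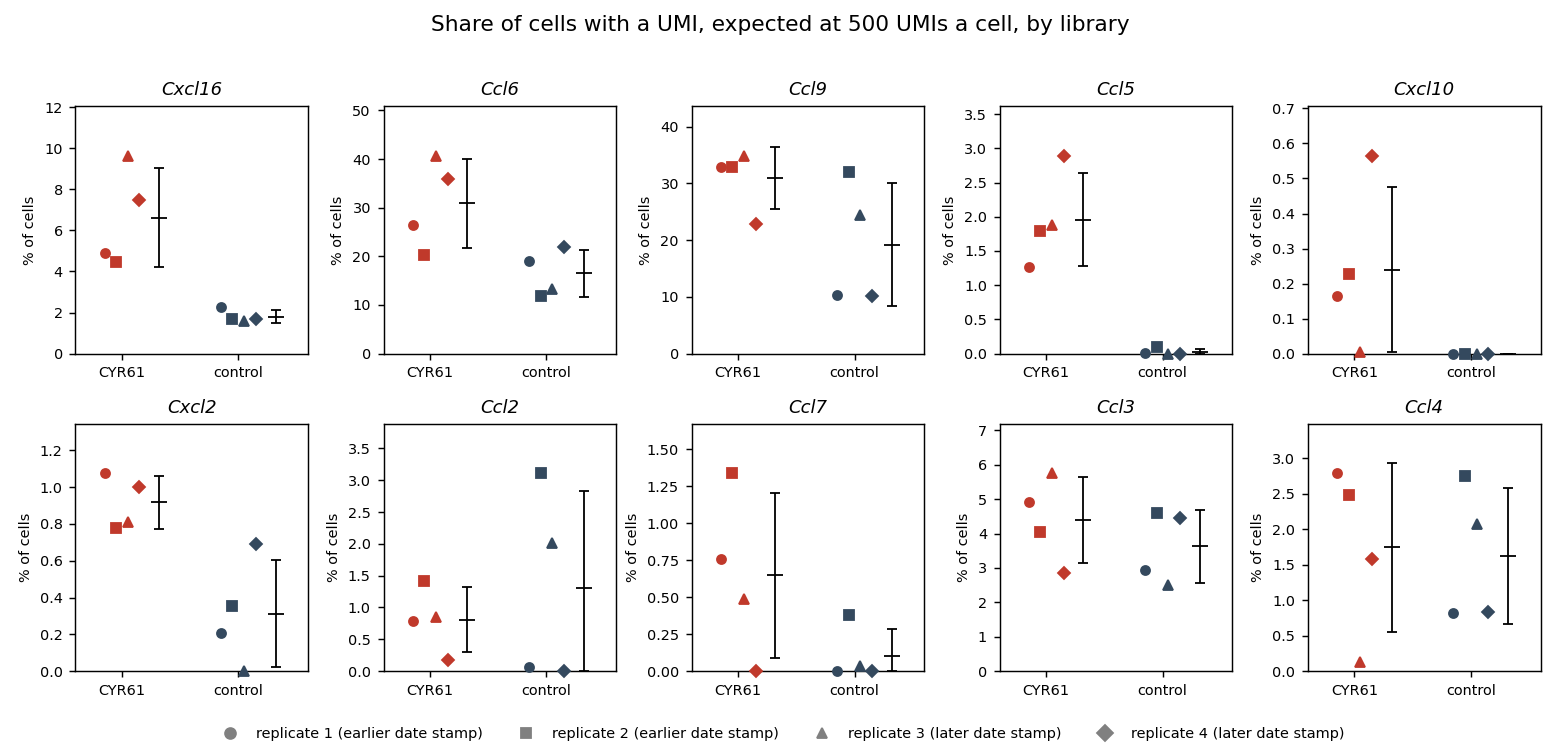
Percent of home-library cells with at least 1 UMI of each chemokine, expected after thinning every cell to 500 UMIs (y axis), 1 point per library, CYR61 in red at the left and control in dark blue at the right, with the mean ± SD of 4 libraries in black and the lower bar stopping at 0. The Cxcl16 share lies between 4.44 and 9.64% in CYR61 libraries and between 1.57 and 2.25% in controls.

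Free RNA can put a UMI of a gene into cells that do not make it. No class of cells known to lack these chemokines was large enough to measure this, and the nearest was a set of 28 cells with at least 1% of their UMIs from 10 neutrophil granule genes and a depth of at least 500 UMIs. At 500 UMIs a cell, the macrophage gene Adgre1 was expected in 12.5% of these granule cells and in 24.3% of the 8820 others, so the set also carried macrophage RNA. Median depth was 2199.5 UMIs in the granule cells and 1250.0 in the others. Ccl9 was expected in 8.37% of granule cells and 28.2% of the others, Ccl6 in 19.6% and 23.8%, Cxcl16 in 5.31% and 4.58%, Ccl5 in 2.61% and 1.41%, Cxcl2 in 1.55% and 0.758%, and Ccl3 in 10.9% and 4.02%. Ccl2, Ccl4, Ccl7 and Cxcl10 had no UMI in the granule cells, where the exact 95% interval of 0 of 28 cells reaches 12.3%. That limit lies above the share of each of these 4 genes in the other cells, so it does not bound their background. The shares of all members are therefore read as shares of cells with a UMI and not as shares of cells that make the chemokine. Leaving out the granule cells, a choice made after the data were seen, gave log2 fold changes of 1.67 for Cxcl16 and 4.42 for Ccl5 (edgeR adjusted p = 0.00552 and 0.0184).

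How far UMIs gathered in few cells largely followed how many cells held any. In CYR61 libraries the 1% of cells richest in Ccl9 held a median of 14.8% of its UMIs, and the values for Ccl6, Cxcl16 and Ccl3 were 16.6, 19.2 and 21.6%. That share was 34.8% for Ccl4, 56.8% for Ccl2, 56.9% for Ccl5, 61.9% for Ccl7, 63.2% for Cxcl2 and 98.4% for Cxcl10. A UMI was found in 65.0% of CYR61 cells for Ccl9, 56.9% for Ccl6, 22.2% for Cxcl16, 18.9% for Ccl3, 11.2% for Ccl4, 6.19% for Ccl5, 4.64% for Ccl2, 3.80% for Ccl7, 3.49% for Cxcl2 and 1.04% for Cxcl10, nearly the same order. The 1% share is therefore no measure of spread apart from detection. A gene with UMIs in fewer cells than that 1% reaches 100% by construction, and Cxcl10, with 74 such cells in all CYR61 libraries together, comes close to that. Single cells held up to 33 UMIs of Ccl5 in CYR61 libraries and at most 5 in controls. The fullest single cells held 37 UMIs of Ccl2 and 91 of Ccl6 with CYR61, and 98 of Ccl9 in a control library.

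**Figure D4:**
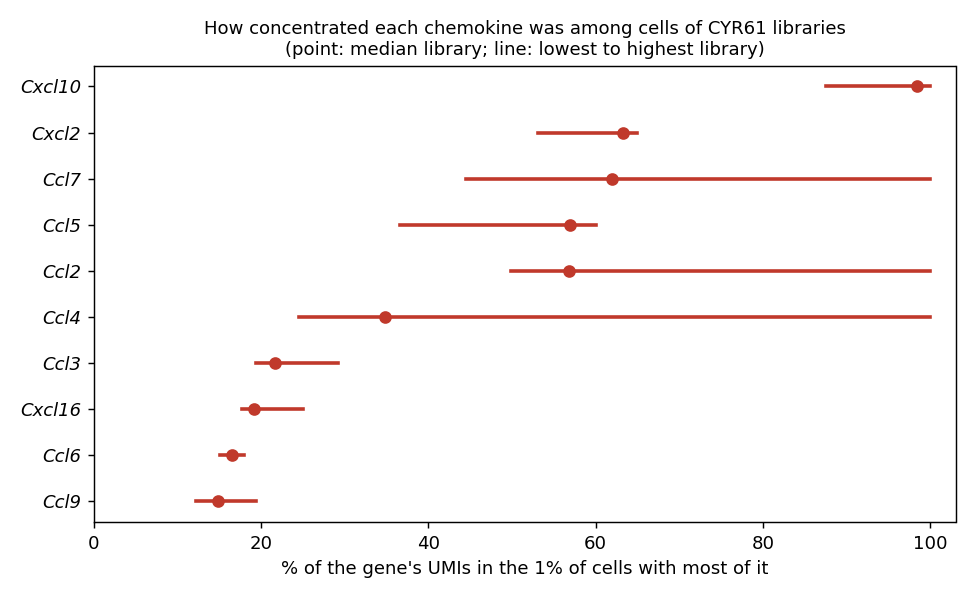
Percent of each chemokine's UMIs held by the 1% of home-library cells richest in it (x axis) in CYR61 libraries, with the median library as a point and the lowest to highest library as a line. Ccl9, Ccl6, Cxcl16 and Ccl3 lie at 29.2% or below in every library, and Cxcl10 at 87.5% or above.

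Pairs of chemokines within cells were described in the CYR61 libraries, with no test, since all counts of a cell share its depth. The highest mean within-library Pearson r among members were 0.12 for Ccl4 with Ccl7, 0.11 for Ccl2 with Ccl7, 0.11 for Ccl6 with Ccl9 and 0.09 for Ccl3 with Ccl4, all weak. For both pairs with Ccl7 the mean covers 3 libraries, and CYR61 replicate 3 had 1 cell with both genes. Over libraries r was 0.046 to 0.255 for Ccl4 with Ccl7 and 0.076 to 0.145 for Ccl2 with Ccl7. Of the 331 cells with Ccl2, 22.7% also held Ccl7, against 3.80% of all cells, and of the 271 cells with Ccl7, 27.7% held Ccl2, against 4.64%. Of the 798 cells with Ccl4, 44.4% held Ccl3, against 18.9% of all cells. These shares pool the CYR61 libraries, which differ in level and depth, so they do not separate cells from libraries. Cells with both Ccl2 and Ccl7 numbered 17, 57, 1 and 0 in CYR61 replicates 1 to 4. The r of Ccl5 was 0.01 with Ccl3 and -0.01 with Ccl4. Over 7663 genes, those most like each member were also weakly alike: Anxa1 (r = 0.14) and Myof (0.12) for Ccl9, Kctd12 (0.12) and Ccl9 (0.11) for Ccl6, Septin2 (0.13) and Cd14 (0.13) for Cxcl16, Sorl1 (0.13) and Cd93 (0.12) for Ccl3, and Saa3 (0.12) for Ccl5. Ccl2, Ccl4, Ccl7, Cxcl2 and Cxcl10 had a UMI in too few cells of some library for this list.

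How far the calls rest on the barcode rule was seen by counting all kept cells, in which a barcode listed in several libraries counts in each. There Ccl5 had 21.1, 34.1, 42.6 and 54.9 CPM in CYR61 libraries and 0.287, 21.5, 12.6 and 13.02 CPM in controls. Cxcl16 had 97.3, 95.9, 161 and 157 CPM in CYR61 libraries and 47.1, 78.6, 66.6 and 71.6 CPM in controls. Control replicates 2 to 4 were higher than in home-library cells for both genes, and the Ccl5 groups came to overlap while the Cxcl16 groups did not, which held with CYR61 above for 1.87% of genes. No member was called, and neither was any other of the 11148 genes (0%), with log2 fold changes of 1.62 for Ccl5 and 0.92 for Cxcl16 (edgeR adjusted p = 0.9999 for both); 185 genes had an unadjusted p under 0.05 and were higher and 94 were lower, and DESeq2 called 1 gene (0.00897%). Of the Ccl5 UMIs in kept cells, 8.34% in CYR61 libraries and 92.1% in controls (128 of 139) were in barcodes whose home was another library. The shares were 6.06% with CYR61 and all 12 UMIs in controls for Cxcl10, and 8.41% with CYR61 and 58.7% in controls for Cxcl16.

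**Figure D5:**
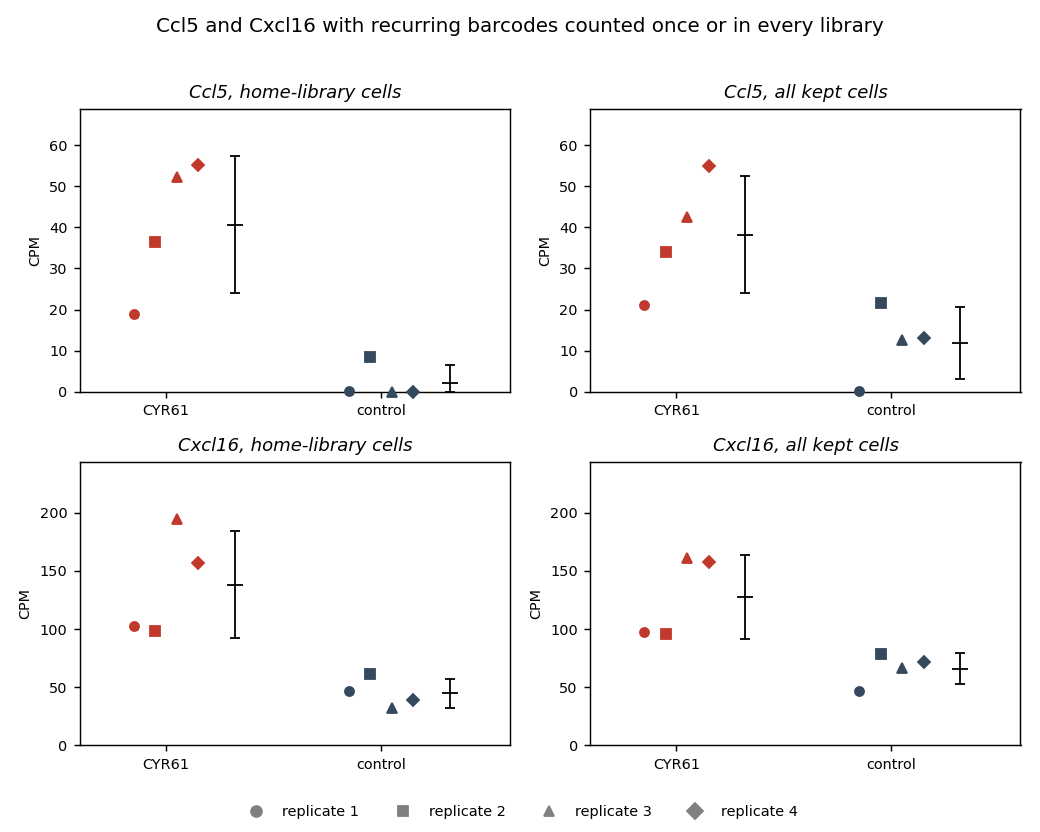
CPM (y axis) of Ccl5 (top) and Cxcl16 (bottom) in home-library cells (left) and in all kept cells (right), 1 point per library with CYR61 in red and control in dark blue, and the mean ± SD of 4 libraries in black, the lower bar stopping at 0. Control replicates 2 to 4 lie higher in all kept cells, up to 21.5 CPM for Ccl5 and 78.6 CPM for Cxcl16.

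Every barcode kept in more than 1 library of a date was also left out. The home-library rule still applied to the remaining barcodes, so this set is not free of it. In this set Ccl5 had 20.7, 33.9, 33.0 and 53.2 CPM in CYR61 libraries and 0.438, 3.58, 0 and 0 CPM in controls. Cxcl16 had 107, 89.8, 226 and 155 CPM in CYR61 libraries and 46.8, 42.9, 32.6 and 29.6 CPM in controls. Both were again called in edgeR, with log2 fold changes of 5.71 (SE 0.75, adjusted p = 0.000427) for Ccl5 and 1.91 (SE 0.31, adjusted p = 0.00246) for Cxcl16. These cells numbered 421 to 2495 a CYR61 library and 251 to 1027 a control library.

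Date stamps were compared because each held 2 libraries of each group. Cxcl16 rose by a log2 fold change of 2.27 (SE 0.35, edgeR adjusted p = 0.00692) within the later date, and had 1.04 (SE 0.18, adjusted p = 0.0675) within the earlier one. The interaction of 1.27 (SE 0.36) had an unadjusted p of 0.00517 and an edgeR adjusted p of 0.396, so a difference between the dates was not established. Of 10422 genes, 10.1% had an unadjusted interaction p under 0.05 and 0 passed the adjusted threshold. Within the later date 80 of 9020 genes were called higher (0.887%) and within the earlier date 57 of 12409 (0.459%). Ccl5 had an edgeR adjusted p of 0.143 within the earlier date, and its interaction did not pass (adjusted p = 0.502). Within the later date its adjusted p was 0.00241, but both control libraries of that date held 0 UMIs of Ccl5. It could enter that fit only through the CYR61 libraries, so that value is not taken as support. In the earlier date both CYR61 libraries held Xist RNA and in the later one neither did, while each date had 1 control library of each kind, so date and that split cannot be told apart for the CYR61 libraries.

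Of 28 other chemokine ligands, 19 had a UMI and 4 were tested, of which 0 were called in edgeR, 0 had an unadjusted p under 0.05 and 0 were called by DESeq2. Pf4, a chemokine of platelets and macrophages, had 927 ± 393 CPM with CYR61 and 664 ± 207 CPM without it (SD, n = 4 each), a log2 fold change of 0.51 (SE 0.31). The others tested, Ccl25, Cxcl14 and Ppbp, had log2 fold changes of 0.18, -0.18 and 0.03. Ccl8 and Ccl12, relatives of Ccl2 that lie outside the 10 members, are named here after their values were seen. They had 56 and 71 UMIs in CYR61 libraries and 0 in controls. With 3 counts allowed to the control group, the levels pooled over libraries were at least 4.51-fold and 5.72-fold higher, by counting error only. CYR61 replicate 3 held 0 UMIs of each, so the groups overlapped at 0 and the bounds do not hold for each library. Ccl8 and Ccl12 passed in edgeR only with no filter on low counts (adjusted p = 0.0414 and 0.0328). CYR61 replicate 4 held 42 of the Ccl8 UMIs, in 14 cells, and 36 of those of Ccl12, in 7 cells.

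Of 24 chemokine receptors, 17 had a UMI, 7 were tested and 0 were called in edgeR, with 0 at an unadjusted p under 0.05, 0 called by DESeq2 and a median log2 fold change of 0.09. Ccr1, a receptor of Ccl6 and Ccl9, had 224 ± 30.5 CPM with CYR61 and 212 ± 48.0 CPM without it, a log2 fold change of 0.11 (SE 0.20). Cxcr4 and Ccr2 had log2 fold changes of 0.08 (SE 0.62) and -0.21 (SE 0.78). Cxcr6, the receptor of Cxcl16, had 3 UMIs in CYR61 libraries and 0 in controls. Of the proteases that release Cxcl16, Adam10 had 314 ± 92.8 CPM with CYR61 and 278 ± 75.3 CPM without it, and Adam17 had 214 ± 32.1 CPM and 191 ± 24.7 CPM, with log2 fold changes of 0.22 (SE 0.25) and 0.19 (SE 0.17). Neither passed the test, and Dpp4, a peptidase that trims chemokines, had 14 UMIs with CYR61 and 0 without it.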

How the data were processed

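HIVE single-cell RNA sequencing covered 8 libraries. The deposited tables hold UMI counts per gene and cell barcode, 5000 barcodes a library, aligned to mm10 per the submitters' processing notes; aligner, counter, annotation, strand setting and cell calling: not given in the sources used here. Total counts ranged from 1379637 to 16318946 a library. The 10 members were fixed by name, and members, gene lists and most alternatives were chosen with earlier results of these data known. All 10 members were named by rule, and from the lists of other ligands, receptors and proteases every called gene and up to 4 others with the highest mean level. 1 receptor that this rule names is not reported here.

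Cells were filtered and assigned to home libraries as the report describes, and no doublet caller was run. Counts were summed per library and tested with edgeR 4.0.16 in R 4.3.3 (TMM factors, filterByExpr, quasi-likelihood test with group as the sole term, Benjamini-Hochberg adjustment over all genes tested). SEs are the log2 fold change divided by the root of F. DESeq2 1.42.0 was an alternative. The edgeR step was tested on simulated counts with known changes. Shares of cells were compared with exact permutation tests (Python 3.11.15, scipy 1.17.1) at 500 UMIs a cell. CPM are UMIs of the summed cells scaled to the library total. The pooled ratio has a 95% interval, and floors are 3 counts over a group; both cover counting error only. Promoters were read from RefSeq (GRCm38.p6) and positions from GENCODE vM21. Further alternatives were another scaling, no filter on low counts, a replicate block, the date stamp, the Xist and Y split, other cell filters and leaving out libraries.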

Additional observations from a re-analysis of the deposited data

Results flagged for a closer look

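Control replicate 2 stood apart from the other 3 control libraries for Ccl5, with 8.49 CPM against 0 to 0.291 CPM, a gap large enough to mark it by Dixon's criterion. Chance alone marks about 1 in 20 such groups. That level rests on 10 UMIs in 6 cells, and the same library had 76.1% of the UMIs of its kept cells in barcodes assigned to another library of the date. Among its home barcodes kept in 1 library alone it had 3.58 CPM. The part of shared barcodes in this value was not tested.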

How the results depend on the processing

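The count of members called higher, 2 as reported, was 4 with no filter on low counts (Cxcl10 and Ccl6 joined), 0 within the earlier date alone, and 1 to 3 when a library was left out. It was 1 without CYR61 replicate 4 or control replicate 1, 3 or 4, where Cxcl16 alone passed. Both called members kept their direction in all 23 settings. With no filter, 208 of 30619 genes were higher in home-library cells (0.679%), 2 other ligands among them. In all kept cells with no filter, edgeR called 2 members (Ccl5, adjusted p = 0.000261, and Cxcl16, 0.00956). The share of all genes called in that fit was not counted, and the Ccl5 groups overlapped there. These 2 calls are therefore not taken as support. With the replicate number as a block the calls were Ccl5 and Cxcl16 as before (adjusted p = 0.0159 and 0.0264), and 106 genes were higher in all. Whether the numbers pair the libraries is not settled. Same-numbered libraries correlated at -0.20, 0.32, -0.09 and 0.31, and 2 of the 4 CYR61 libraries correlated best with their own number. These were replicates 2 and 4, whose control is of the same Xist or Y kind. Replicates 1 and 3 differ from their control in that kind, so the correlations cannot separate pairing from the split.

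Some uncalled members changed direction. Ccl2 had log2 fold changes of 0.49 with the replicate block, 0.10 with the Xist and Y split, 0.11 in the earlier date, and -0.60 to 1.02 with a library left out, positive without CYR61 replicate 4 or control replicate 2. Ccl3 had -0.018 in the later date and -0.13 to 0.36 with a library left out, negative without control replicate 1 or 3, and Ccl4 had -0.36 in the later date. The thinned share of Ccl4 differed by -0.222 to 0.662 percentage points with a library left out, and that of Ccl2 by -0.924 to 0.112. The cause was not tested. Other scalings moved the median of all genes by at most 0.04 (log2). Low control counts limit Ccl5, Ccl7 and Cxcl10.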

Other observations

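Barcodes with under 100 detected genes, which entered no comparison, also held chemokine RNA. Summed per library they had 53.8, 86.8, 160 and 137 CPM of Cxcl16 in CYR61 libraries and 65.5, 20.8, 17.7 and 35.0 CPM in controls. Ccl5 was counted there in 1 library, CYR61 replicate 3, at 38.0 CPM. Ccl2 was counted at 26.9, 0, 22.8 and 0 CPM in CYR61 libraries and at 8.18, 62.3, 53.1 and 0 CPM in controls. Many of these values rest on few UMIs, so a 0 or a difference between libraries carries little weight. The smallest value above 0 of any member was 43.4 CPM in CYR61 replicate 2 and 17.7 CPM in control replicate 3.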
